A study of Mus musculus with 12 samples.

Results

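Tbx20 and 9 other transcription factors, most of them known from the heart, were followed in muscle tissues grown from C2C12, an established mouse myoblast line. The 10 genes (Tbx20, Tbx2, Tbx3, Tbx5, Tbx15, Tbx18, Gata4, Gata6, Hand2 and Nkx2-5) were taken by name from a table of 78298 genes, and each name matched 1 row. The labels give 6 libraries of wild-type C2C12 (WT) and 6 of the RGECO genotype, C2C12 cells with a genetically encoded indicator of calcium. Both were kept on a hydrogel of methacrylated gelatin and differentiated over 14 days with 10% horse serum, 50 ng/ml IGF-1 and 1 mg/ml aminocaproic acid. The labels do not say whether the RGECO line is 1 clone, which promoter drives the indicator, or whether the replicates are separate cultures. The p-values below therefore reflect only the spread between these libraries, which may be technical. RGECO replicate 4 held 825 counts and no count of any of the 10 genes. The values below come from the 6 WT and the other 5 RGECO libraries, with 5881622 to 11926220 counts each.

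T-box factors bind DNA through the T-box domain, and several of them act with the zinc-finger factors Gata4 and Gata6, the homeodomain factor Nkx2-5 and the bHLH factor Hand2 in the developing heart. Tbx20 and Tbx5 take part in the programme of beating chamber muscle, whereas Tbx2 and Tbx3 are repressors that keep the conduction tissue from becoming chamber muscle. Tbx15 and Tbx18 form a related pair known from the limb, the skeleton and skeletal muscle in the case of Tbx15, and from the epicardium, pericytes and sinus node in the case of Tbx18.

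The members were chosen with values of these libraries in view. Their levels and their differences between the lines are therefore given as a description, with no test. Counts per 1000000 counts of a library, scaled by TMM factors (CPM), are used to compare libraries, and TPM, which is corrected for transcript length, is used to compare genes. A log2 fold change is RGECO over WT throughout.

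Promoter sequences are shown for the 3 measured members that have an entry in the RefSeq promoter table for GRCm38.p6, because Tbx20 and Nkx2-5 had the widest count ratios between the lines, and Tbx18, on the same chromosome as Tbx20, was well detected in both. Each run holds the 250 bases before the RefSeq start, read 5′ to 3′ on the gene's own strand, with every CG dinucleotide in capitals. The Tbx20 run is chr9:24774304-24774553, the Tbx18 run is chr9:87731261-87731510 and the Nkx2-5 run is chr17:26841566-26841815, all on the minus strand. GENCODE M21 places the Nkx2-5 gene at chromosome 17: 26838664 to 26845009, so by that annotation its run lies inside the gene. The Tbx20 and Tbx18 runs lie directly before their GENCODE starts.
Tbx20: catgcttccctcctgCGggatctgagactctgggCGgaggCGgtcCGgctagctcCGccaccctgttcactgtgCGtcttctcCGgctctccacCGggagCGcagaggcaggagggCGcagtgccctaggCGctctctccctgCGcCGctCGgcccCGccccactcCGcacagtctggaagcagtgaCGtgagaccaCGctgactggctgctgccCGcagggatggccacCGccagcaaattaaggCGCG
Tbx18: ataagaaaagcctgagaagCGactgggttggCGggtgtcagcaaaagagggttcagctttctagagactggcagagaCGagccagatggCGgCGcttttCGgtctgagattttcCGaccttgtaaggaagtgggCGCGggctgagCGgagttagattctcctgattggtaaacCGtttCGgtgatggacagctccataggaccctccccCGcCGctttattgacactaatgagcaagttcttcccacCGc
Nkx2-5: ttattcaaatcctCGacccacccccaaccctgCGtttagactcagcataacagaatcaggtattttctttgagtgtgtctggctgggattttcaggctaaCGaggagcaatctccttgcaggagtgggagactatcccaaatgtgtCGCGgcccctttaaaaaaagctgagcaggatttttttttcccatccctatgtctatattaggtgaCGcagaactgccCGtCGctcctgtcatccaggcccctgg
The Tbx20 run held 22 CG dinucleotides and 68.8% G and C, and 14.8% of the 32817 promoters in the table held at least as many CG in the same window. Tbx18 held 15 CG (27.3% of promoters held as many) and Nkx2-5 held 8 (43.0%), against a median of 6. Motifs were searched on both strands of the 3 runs, and none of these 5 was found. The T-box half-site was searched as AGGTGTG, which 5.10% of promoters hold. The GATA factor site was searched as AGATAA, held by 9.99%. The NKX2 site was searched as CAAGTG, held by 11.6%. The E-box that MyoD binds was searched as CAGCTG, held by 13.0%. The core promoter box bound by TBP was searched as TATAAA, held by 12.4%. The absence says only that those letters are not in these windows.

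Tbx20 (ENSMUSG00000031965, chromosome 9: 24718138 to 24774303, GRCm38) was counted in every RGECO library and was almost absent from WT. The estimated counts were 28, 57, 38, 27 and 97 in RGECO replicates 1, 2, 3, 5 and 6. In WT they were 1 in replicate 1, 2 in replicate 6 and 0 in the other 4 libraries. The lines did not overlap, and the lowest RGECO library had 27 counts where the highest WT library had 2. In CPM the RGECO libraries held 3.75, 5.59, 3.64, 4.71 and 8.09 in the same order, a mean of 5.16 ± 1.82 (SD, n = 5), against 0.0507 ± 0.0828 (SD, n = 6) in WT. Over all libraries there were 247 counts in RGECO and 3 in WT, a CPM ratio of 108 with an exact 95% counting interval of 36.7 to 529, which covers counting error only. In bulk RNA, fewer cells with a transcript and less of it per cell cannot be told apart, here and for every gene below. The fitted log2 fold change was 6.37 ± 0.61 (SE). It depended on the few WT counts, since it was 7.30 without WT replicate 6 and 6.12 to 6.65 without any other single library.

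Among the 13318 genes tested, 3 had a larger log2 fold change than Tbx20. Tbx20 was kept by the filter on low counts through its RGECO libraries, and it was 1 of the 6 members kept. In edgeR's quasi-likelihood fit over all genes 8.35% of genes were called at an adjusted p under 0.05, 3.42% as higher and 4.93% as lower in RGECO. Since the members were chosen on this contrast, their own calls are not given. The CPM ranges of the lines were apart for 7.97% of tested genes (3.48% with RGECO higher, 4.49% with RGECO lower) and, among the 6 tested members, for Tbx20 alone.

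**Figure D1:**
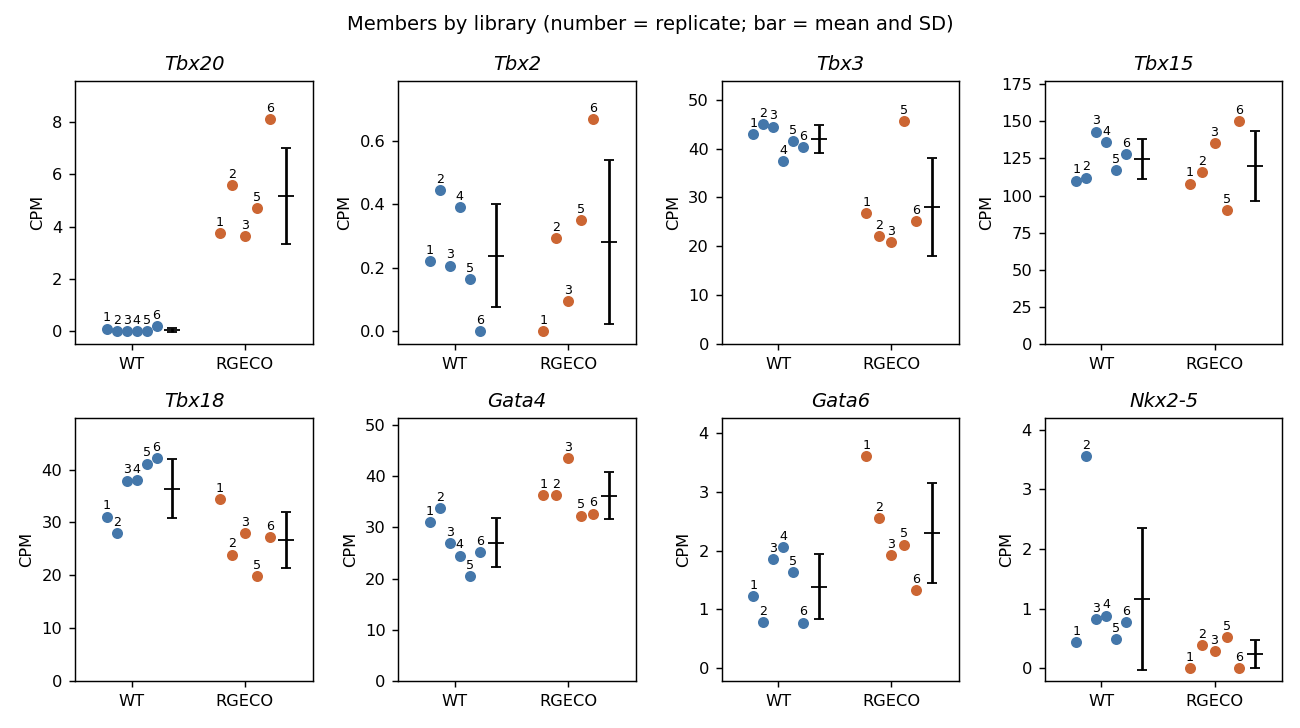
Level of 8 members in CPM (vertical axes, one scale per gene) in each WT (blue) and RGECO (orange) library, numbered by replicate, with the mean and SD beside each group. Tbx20 is near 0 in all 6 WT libraries and between 3.64 and 8.09 in RGECO, while the other 7 genes overlap between the lines; RGECO replicate 5 stands high for Tbx3 and WT replicate 2 for Nkx2-5.

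The deposited TPM gave another order of the RGECO libraries. Tbx20 stood at 5.73 TPM in replicate 1, 1.17 in replicate 2, 0.508 in replicate 3, 1.36 in replicate 5 and 1.14 in replicate 6. Replicate 1, with the second lowest CPM, thus had the highest TPM. Without it the RGECO mean was 1.05 ± 0.372 TPM (SD, n = 4), against 1.98 ± 2.12 TPM (SD, n = 5) with it.

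Counts divided by TPM show the transcript length on which the TPM rests, here given relative to the median gene of the same library. For Tbx20 this relative length was 0.448 in RGECO replicate 1, 2.05 in replicate 5, 2.88 in replicate 2, 4.29 in replicate 6 and 4.38 in replicate 3, and 4.44 and 4.17 in the 2 WT libraries with a count. The length implied for Tbx20 thus differed between libraries. GENCODE M21 lists 5 Tbx20 transcripts of 455 to 9091 bases, though the annotation used for the deposited tables is not given in the sources used here. The highest value over the RGECO libraries was 9.79 times the lowest. Of 12789 tested genes with a count in every RGECO library, 0.227% had a wider spread (median 1.26 times). Those genes were not matched to Tbx20 for their counts. The gene-level tables do not show which Tbx20 transcripts these 27 to 97 counts per library came from.

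**Figure D2:**
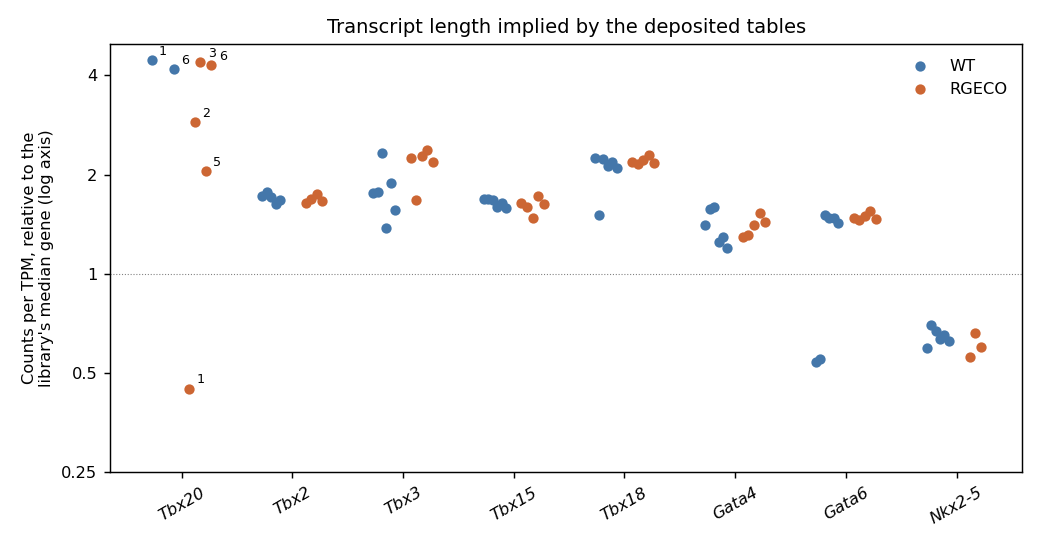
Counts per TPM relative to the median gene of the library (vertical log axis) for 8 members in WT (blue) and RGECO (orange) libraries with a count, with replicate numbers for Tbx20. Tbx20 spans 0.448 to 4.44, whereas Tbx15 spans 1.48 to 1.72 and Tbx2 1.63 to 1.77; Gata6 falls to 0.539 and 0.551 in 2 WT libraries.

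Genes around Tbx20 on chromosome 9 were also read, a window chosen after the Tbx20 values were seen. Within 500 kb of the gene GENCODE M21 places 20 other genes of the table, of which 8 had a count and 3 were tested. Dpy19l1 was at -0.43 ± 0.18 (SE), Herpud2 at 0.01 ± 0.11 and Septin7 at 0.16 ± 0.23 on the log2 scale, each with a 95% interval inside 2-fold. None of these 3 passed (edgeR quasi-likelihood, adjusted p = 0.161, 0.965 and 0.747), although Dpy19l1 did without WT replicate 2 (-0.52, adjusted p = 0.0456). Gm29824, a long noncoding RNA that begins 2.2 kb from the Tbx20 start, had 0 counts in WT and 1 in RGECO.

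Tbx2 and Tbx3, the repressors, differed widely in level from each other. Tbx2 had 0 to 4 counts in each WT library and 0 to 8 in each RGECO library, with 14 counts in each line and a CPM ratio of 1.32 (exact 95% counting interval 0.582 to 2.98). It was kept out of the fit by the filter. Tbx2 is a gene that Tbx20 is known to repress in the heart, and at this depth no difference was detectable. Tbx3 (chromosome 5: 119670669 to 119684724, GRCm38) held 43.0, 45.0, 44.5, 37.5, 41.5 and 40.3 CPM in WT replicates 1 to 6. In RGECO it held 26.8, 22.1, 20.9, 45.6 and 25.1 CPM in replicates 1, 2, 3, 5 and 6. Replicates 1, 2, 3 and 6 lay below every WT library, while replicate 5, the library with the fewest counts, lay above all 6. The log2 fold change was -0.59 ± 0.18 (SE), and -0.83 without RGECO replicate 5. The antisense transcript Tbx3os1 had 15 counts over WT and 3 over RGECO, and strand was not stated for the counting, so a small part of the Tbx3 counts cannot be told apart from it.

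Tbx5, the forelimb and atrial factor, had no count in any library, although it lies 148 kb from Tbx3. Hand2, a bHLH factor of the right ventricle and limb bud, had none either, and its divergent transcript Hand2os1 had 1 count in all. For each gene 0 of 106000810 counts allows a level of up to 0.0283 CPM over the 11 libraries, or 0.252 to 0.510 CPM in a single one (3 counts each).

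Tbx15 was the most abundant of the 10 genes in both lines. It held 110 to 143 CPM in WT and 90.3 to 150 CPM in RGECO, and the RGECO range enclosed that of WT. Its mean was 124 ± 13.6 CPM (SD, n = 6) and 120 ± 23.3 CPM (SD, n = 5), with a log2 fold change of -0.05 ± 0.13 (SE). Tbx18 (chromosome 9: 87702800 to 87731260, GRCm38) held 31.1, 28.0, 37.9, 38.0, 41.1 and 42.2 CPM in WT replicates 1 to 6, and 34.4, 23.9, 28.0, 19.9 and 27.2 CPM in RGECO replicates 1, 2, 3, 5 and 6. RGECO replicate 1 lay inside the WT range and the other 4 below it, replicate 3 only just. The log2 fold change of Tbx18 was -0.45 ± 0.16 (SE) and stayed between -0.36 and -0.55 without any single library.

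RGECO replicate 5 set the edges of several of these ranges. It was the lowest RGECO library for Tbx15, Tbx18 and Gata4 and the highest for Tbx3. The part of its lower depth in these values was not tested.

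Gata4, the zinc-finger factor that partners Tbx5, Tbx20 and Nkx2-5 in the heart, held 31.1, 33.8, 26.9, 24.5, 20.5 and 25.2 CPM in WT replicates 1 to 6. In RGECO it held 36.3, 36.3, 43.6, 32.3 and 32.7 CPM in replicates 1, 2, 3, 5 and 6. WT replicate 2 reached above the lowest RGECO libraries, so the lines overlapped. The log2 fold change was 0.43 ± 0.14 (SE), with 0.35 to 0.51 without any single library. Gata6 was much lower in CPM, at 1.22, 0.778, 1.86, 2.06, 1.64 and 0.774 in WT and 3.61, 2.55, 1.92, 2.10 and 1.33 in RGECO in the same orders. RGECO replicates 3 and 6 lay inside the WT range, and the log2 fold change was 0.71 ± 0.39 (SE), or 0.49 without RGECO replicate 1. The divergent transcript Gata6os had 4 counts in each line.

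Nkx2-5, the homeodomain factor of the early heart, was low in both lines. The counts were 4, 32, 8, 9, 6 and 8 in WT replicates 1 to 6 and 0, 4, 3, 3 and 0 in RGECO replicates 1, 2, 3, 5 and 6. WT replicate 2 alone held 32 of the 67 WT counts, and 35 remained over the other 5. The CPM ratio of RGECO to WT was 0.197 (exact 95% counting interval 0.0902 to 0.384), a value for counting error that does not cover the spread between the WT libraries. In CPM the lines overlapped, and the filter kept the gene out of the fit. The RGECO libraries with Tbx20 counts thus held no more than 4 counts of Nkx2-5 each and none of Tbx5 or Hand2.

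Ordered by TPM, WT tissues had Tbx15 at 43.9 ± 8.80 (SD, n = 6), followed by Tbx3 at 13.8 ± 1.87, Gata4 at 11.2 ± 1.23 and Tbx18 at 10.3 ± 1.97. Tbx15 stood apart from the next gene, while neighbours among Tbx3, Gata4 and Tbx18 overlapped. A gap then led to Nkx2-5 at 0.950 ± 0.775 and Gata6 at 0.743 ± 0.266, which overlapped, and to Tbx2 at 0.0773 ± 0.0494. Tbx20, at 0.00711 ± 0.0122 TPM, was the lowest WT member with any count and overlapped Tbx2, since both were at 0 in some libraries. In RGECO tissues Tbx15 again led at 46.3 ± 10.2 (SD, n = 5), and Gata4 came next at 16.2 ± 3.01, apart from Tbx3 at 8.01 ± 2.15 and Tbx18 at 7.60 ± 2.04. Tbx20 came next at 1.98 ± 2.12, and its range overlapped those of Tbx18 and Gata6 (0.971 ± 0.429). Without RGECO replicate 1 the Tbx20 mean of 1.05 TPM lay beside 0.797 TPM for Gata6. Nkx2-5 at 0.241 ± 0.238 and Tbx2 at 0.101 ± 0.0940 followed. Without RGECO replicate 5 Tbx18, at 8.20 TPM, came before Tbx3, at 7.16 TPM.

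**Figure D3:**
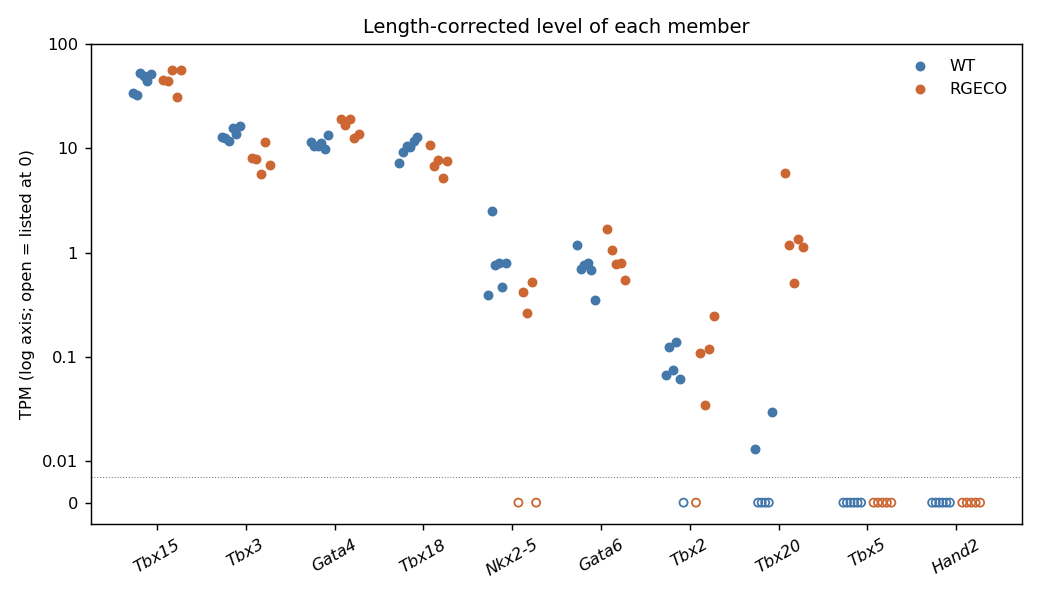
TPM of the 10 members (vertical log axis, ordered by the WT mean) in each WT (blue) and RGECO (orange) library, with open circles at the bottom for libraries listed at 0. Tbx15 lies above all others in both lines, Tbx20 moves from 0.0297 TPM or less in WT to between 0.508 and 5.73 in RGECO, and Tbx5 and Hand2 are at 0 throughout.

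The 5 genes whose pattern was most like that of Tbx20 were Gm32618, Chmp5, Hnrnpul2, Tmem59 and Vps36. Likeness was Pearson's r over the 11 libraries on log2 CPM after each line's mean was subtracted, among 7758 genes whose mean log2 CPM was 4 or more. Their r values were 0.89, 0.85, 0.82, 0.80 and 0.79 in that order, and Tbx20 had r = 0.24 with the log2 of the library total treated in the same way. Since Tbx20 was at or near 0 in WT, these values rest mainly on 5 RGECO libraries. Picking the highest of 7758 also favours high values, and a link of these genes to Tbx20 was not tested.

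Related genes were read in 8 lists of 122 genes in all: other T-box, GATA, homeobox and bHLH genes, cofactors, targets, cardiomyocyte markers and BMP signals. Of these genes 74 were tested, and 3 rose and 9 fell in RGECO (edgeR's quasi-likelihood test, adjusted p under 0.05). That was 16.2% called, against 8.35% of all genes (3.42% higher, 4.93% lower). The lists were chosen with earlier results of these data known, so nothing is read from the difference between these shares. The median log2 fold change of the 74 was -0.08, against -0.01 over all genes. The 95% interval lay inside 2-fold for 55 of the 74, or 74.3%, against 74.0% of all genes. Without WT replicate 1 the count was 6 and without WT replicate 3 it was 7, none of them higher in RGECO. On log2(TPM + 1), where 2.81% of genes were called (1.56% higher, 1.25% lower), 6 of 84 passed. In the fit without the filter on low counts, which called 3.67% of genes (1.29% higher, 2.38% lower), 15 of 102 passed.

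Among 11 other T-box genes 2 were tested, and Tbx1, a factor of the pharyngeal mesoderm and its muscles, fell. The WT mean was 19.9 ± 4.34 CPM (SD, n = 6), against 10.6 ± 2.67 CPM (SD, n = 5) for RGECO. Its WT libraries held 16.8 to 26.9 CPM and its RGECO libraries 7.23 to 14.1 CPM, with no overlap, and the fold change on the log2 scale was -0.90 ± 0.20 (SE), with adjusted p = 0.00975. The call was lost without RGECO replicates 1 and 5 together (-0.71, adjusted p = 0.0698). Among 7 GATA genes and cofactors 5 were tested. Gata2, a factor of blood progenitors, fell by 0.95 (log2; adjusted p = 0.00391, and 0.217 on log2(TPM + 1)), and Zfpm2, the FOG cofactor of Gata4, rose by 0.61 (adjusted p = 0.0324). Zfpm2 no longer passed when WT replicate 1 or 3 or RGECO replicate 1, 3 or 6 was left out alone (adjusted p = 0.0683, 0.0555, 0.0943, 0.0537 and 0.0648). It was also lost with all 12 libraries, under the replicate block, without RGECO replicates 1 and 5 together and on log2(TPM + 1) (adjusted p = 0.0506, 0.0912, 0.0534 and 0.202). None of 12 tested homeobox genes and none of 3 tested bHLH genes passed. Over all genes tested 8.35% were called, 3.42% as higher and 4.93% as lower in RGECO. Nothing is read from the counts of calls in these short lists.

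Among 19 tested cofactors 2 fell and 0 rose, where 4.93% of all genes were called lower and 3.42% higher. Foxc1, a forkhead factor, was at -0.94 ± 0.17 (SE, adjusted p = 0.00309; 0.112 on log2(TPM + 1)), and Srf, the serum response factor, at -0.79 ± 0.21 (SE, adjusted p = 0.0260). Srf no longer passed when WT replicate 1 or 3 or RGECO replicate 1, 2, 5 or 6 was left out alone (adjusted p = 0.0647, 0.0663, 0.0507, 0.0791, 0.0666 and 0.0780). It was lost as well without RGECO replicates 1 and 5 together (adjusted p = 0.133) and on log2(TPM + 1) (adjusted p = 0.158).

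Of the genes described as T-box targets, 7 of 16 were tested, where 8.35% of all genes were called (3.42% higher, 4.93% lower). The chemokine receptor Ackr3 rose by 0.42 (log2; adjusted p = 0.0339). Ackr3 missed the threshold when WT replicate 1, 3 or 4 or RGECO replicate 1, 2, 3 or 6 was left out alone (adjusted p = 0.0533 to 0.0936). It was also lost with all 12 libraries, without the filter, under the replicate block and on log2(TPM + 1) (adjusted p = 0.374, 0.0928, 0.115 and 0.179). The gap junction gene Gja1 at 0.24 ± 0.10 and the cell cycle inhibitor Cdkn1a at 0.14 ± 0.10 (SE) did not pass (adjusted p = 0.194 and 0.492). Nppa, the atrial natriuretic peptide gene, and Cdkn2a had no count in any of the 11 libraries, Mycn had 3 counts in WT and 0 in RGECO, and Gja5 had 32 and 2.

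Of 22 cardiomyocyte markers 12 were tested, with a median log2 fold change of 0.00. The share called over all genes was 8.35% (3.42% higher, 4.93% lower). Myl3, the light chain of ventricle and slow fibres, rose by 1.20 (adjusted p = 0.0444). Myl3 lost its call without any single WT library except replicate 2, and without RGECO replicate 2, 3, 5 or 6 (adjusted p = 0.0561 to 0.126). It was lost too under the replicate block and without RGECO replicates 1 and 5 together (adjusted p = 0.102 and 0.0875). Myh6 at -0.49 ± 0.20, Tnni3 at -0.49 ± 0.36, Actc1 at -0.12 ± 0.15 and Tnnt2 at -0.03 ± 0.16 (SE) did not pass (adjusted p = 0.152, 0.481, 0.704 and 0.944). Myl7, the atrial light chain, had no count, and Nppb had 28 counts in WT and 39 in RGECO.

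Of 16 tested BMP genes, the signals that induce cardiac factors in the embryo, 0 rose and 4 fell. Over all genes tested 3.42% were called higher and 4.93% lower in RGECO. The 4 that fell were the receptor Bmpr1b at -1.31, the signal transducer Smad1 at -0.66, the secreted BMP antagonist Grem1 at -0.65 and the inhibitory Smad7 at -0.62 (adjusted p = 0.0458, 0.00236, 0.00963 and 0.0345). They thus included 2 genes that carry the signal and 2 that restrain it. Smad1 held its call under every alternative run. Bmpr1b lost its call without any single library except WT replicate 2 and RGECO replicate 1 (adjusted p = 0.0586 to 0.103), and under the replicate block, on log2(TPM + 1) and without RGECO replicates 1 and 5 together (adjusted p = 0.120, 0.0763 and 0.0532). Smad7 missed it when WT replicate 1, 2, 3 or 6 or RGECO replicate 2, 3 or 6 was left out (adjusted p = 0.0576 to 0.109), under the replicate block (0.0610) and on log2(TPM + 1) (0.147). Grem1 lost it with all 12 libraries (0.0954), without RGECO replicates 1 and 5 together (0.0678) and on log2(TPM + 1) (0.210).

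**Figure D4:**
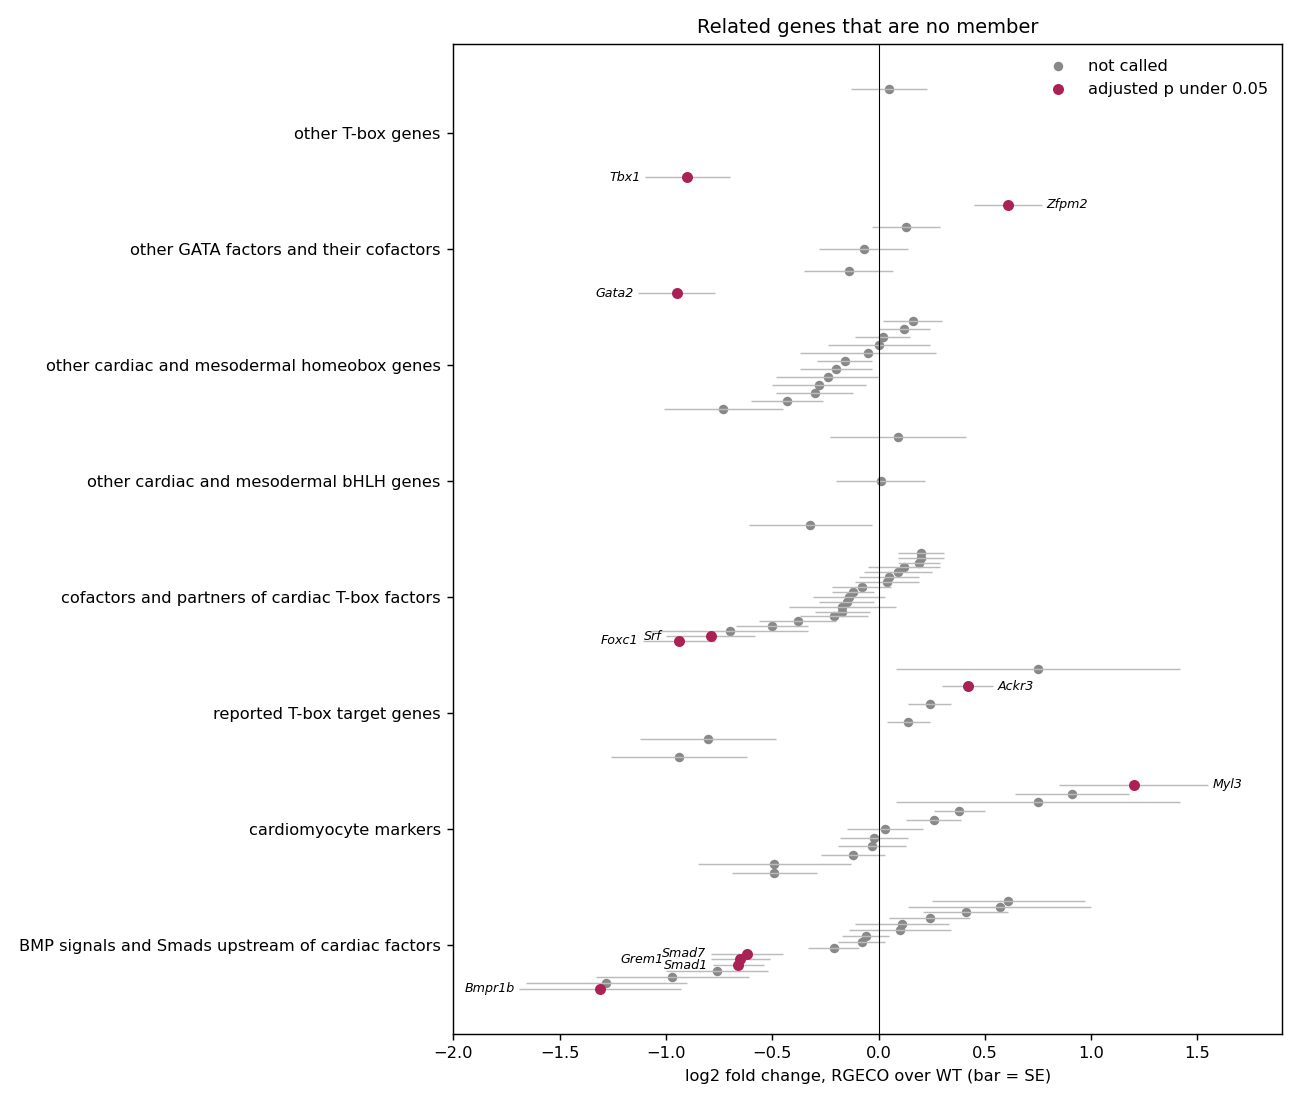
Log2 fold change of RGECO over WT (horizontal axis, bars are SE) for tested genes of the 8 related lists, with genes past adjusted p 0.05 in red and named. Of the called genes drawn, only Zfpm2, Ackr3 and Myl3 lie to the right of 0.

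The tissues carried the markers of skeletal muscle. All 15 skeletal markers were tested, and their summed level was 14300 to 22800 CPM in WT and 18600 to 25100 CPM in RGECO. Of these 15, 2 rose, 4 fell and 9 did not pass, with a median log2 fold change of 0.21, where 8.35% of all genes were called. Myod1, the determination factor, fell by 0.51 (adjusted p = 0.0277). It did not pass when WT replicate 1, 3 or 5 or RGECO replicate 2, 5 or 6 was left out (adjusted p = 0.0555 to 0.0985), with all 12 libraries (0.186), without RGECO replicates 1 and 5 together (0.0703) or on log2(TPM + 1) (0.163). The other 5 called markers are named after their values were seen. Myh8, the perinatal myosin heavy chain, fell by 1.06 (adjusted p = 0.000383, and 0.136 with all 12 libraries). Actn2, a Z-disc actinin, fell by 0.66 (adjusted p = 0.0128, with 0.386 for all 12 libraries and 0.0702 without RGECO replicates 1 and 5). Myf6, a myogenic factor of differentiated fibres, fell by 0.89 (adjusted p = 0.0283). Its call did not hold in 13 of 20 alternatives, among them WT replicate 1, 3, 4 or 5 or RGECO replicate 1 or 2 left out alone (adjusted p = 0.0533 to 0.0639). Myh3, the embryonic myosin heavy chain, rose by 0.54 (adjusted p = 0.0202, with 0.0575 without RGECO replicate 3 and 0.962 for all 12 libraries). Myf5, a factor of myoblasts, rose by 0.58 (adjusted p = 0.0228). Its call did not hold in 7 of 20 alternatives, among them RGECO replicate 1 left out alone (adjusted p = 0.0656). Myog at -0.18, Ckm at -0.35 and Acta1 at 0.22 did not pass (adjusted p = 0.596, 0.199 and 0.448).

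Of the epicardial markers, listed because Tbx18 is known from the epicardium, 5 of 8 were tested. Of these, 2 rose and 1 fell, where 8.35% of all genes were called. The summed level of the 8 was 341 to 388 CPM in WT and 453 to 520 CPM in RGECO. Most of it came from Msln (mean 218 CPM in WT and 290 in RGECO), Sema3d (83.7 and 97.0) and Krt19 (53.6 and 97.4). Tcf21, a defining marker, and Aldh1a2 were at 0 in all 11 libraries, and Upk3b had 1 count in WT and 0 in RGECO. The members that moved are named after their values were seen. Wt1, an epicardial transcription factor, fell by 2.55 (log2; adjusted p = 0.00179). Krt19, a keratin, rose by 0.86 (adjusted p = 0.00481), and Msln, mesothelin, rose by 0.41 (adjusted p = 0.0442). Msln no longer passed when WT replicate 1, 4, 5 or 6 or RGECO replicate 2, 3 or 5 was left out (adjusted p = 0.0742 to 0.105), with all 12 libraries (0.835), without the filter (0.0697), under the replicate block (0.107) and without RGECO replicates 1 and 5 together (0.114).

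Of 8 pericyte markers 6 were tested, and 1 rose and 1 fell, where 8.35% of all genes were called. The summed level of the 8 was 360 to 535 CPM in WT and 366 to 563 CPM in RGECO. Most of it came from Notch3 (mean 204 CPM in WT and 304 in RGECO), Pdgfrb (88.3 and 29.3), Anpep (74.6 and 83.8) and Cspg4 (62.0 and 50.8). Rgs5 had 7 counts in WT and 1 in RGECO, and Kcnj8 had 3 and 2. Pdgfrb, the PDGF receptor that marks pericytes and other mesenchymal cells, fell by 1.59 (adjusted p = 1.03e-05). Of 7 smooth muscle markers 5 were tested and 1, Tagln, fell, by 0.70 (adjusted p = 0.0178; 0.0518, 0.0544 and 0.0537 without WT replicate 5 or RGECO replicate 3 or 6; 0.0887 with all 12 libraries; 0.0865, 0.0848 and 0.163 on log2(TPM + 1), on log2(TPM + 0.1) and on log2(TPM + 1) with no filter). The pericyte marker that rose was Notch3, by 0.58 (adjusted p = 0.0307), but not when WT replicate 1, 4, 5 or 6 or RGECO replicate 1, 2, 3 or 5 was left out (adjusted p = 0.0503 to 0.0846), with all 12 libraries (0.625), under the replicate block (0.0529) and without RGECO replicates 1 and 5 together (0.212). No endothelial, adipocyte or neural marker passed the filter, with sums of at most 1.92, 0.164 and 3.17 CPM in any library. Of the 6 immune markers, summing to 14.2 to 35.6 CPM, 2 were tested and 0 passed. Most of that sum came from Cd68 (mean 20.3 CPM in each line). Adgre1 had no count, and Ptprc had 1 count in WT and 0 in RGECO. Csf1r had 10 and 6 counts in the same order, and Itgam 35 and 21. The part of these markers and of the skeletal markers in the values of Tbx18, Tbx3 and Tbx20 was not tested.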

How the data were processed

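Per the labels' protocols, poly(A) RNA was amplified in 14 PCR cycles and read as 50-base pairs. The authors deposited estimated counts and TPM for each gene, which the file names attribute to Salmon. Salmon, STAR, bedtools 2.25.0 and BWA 0.7.12-r1039 are named in the submitters' processing notes, as are GRCm39, mm10 and hg19. Their roles, the annotation and the strand setting were not given in the sources used here. The estimated counts of the members lay within 0.001 of a whole number. Coordinates are from GENCODE M21 (GRCm38).

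RGECO replicate 4 was left out. Rounded counts went into edgeR 4.0.16 under R 4.3.3 (filterByExpr, TMM, robust quasi-likelihood F test, Benjamini-Hochberg adjustment over 13318 genes, threshold 0.05), after a test on simulated data. SEs come from the F statistic. The floor is 3 counts. Alternatives were all 12 libraries, DESeq2 1.42.0, RLE factors, no filter, limma 3.58.1 on log2(TPM + 1) or log2(TPM + 0.1) for genes at 0.1 TPM or more in at least 5 libraries, a replicate block and each library left out. Leaving out RGECO replicates 1 and 5 together was chosen after seeing the data. The smallest chi-square per gene over 25 pairs of libraries within a line was 7.23, so no pair was merged.

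The members and lists were chosen with earlier results of these data known. Named genes were the members, up to 5 called genes per related list by size of change, a stated set of cardiac, target and skeletal genes, the antisense neighbours, and the 5 genes most like Tbx20; others are said to be chosen after their values. The result of 1 gene is not reported or drawn here; the totals over the related lists include it.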

Additional observations from a re-analysis of the deposited data

Results flagged for a closer look

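Among 30 groups of libraries examined in the 10 genes (CPM and TPM, each line apart), 4 had a library far from the others by Dixon's criterion. Chance alone meets it in about 1 of 20 groups only for independent, normally distributed values. CPM and TPM of a gene rest on the same counts, and some of these counts are near 0. The 4 are therefore not set against that rate. Tbx20 in RGECO replicate 1 stood at 5.73 TPM, against 0.508 to 1.36 in the other RGECO libraries, while its CPM of 3.75 was inside their range. Tbx3 in RGECO replicate 5 stood at 45.6 CPM, against 20.9 to 26.8. Nkx2-5 in WT replicate 2 stood at 3.56 CPM against 0.442 to 0.883, and at 2.49 TPM against 0.388 to 0.802.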

How the results depend on the processing

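The number of genes called was 1112 (41.0% of them higher in RGECO). It was 820 with all 12 libraries (28.9% higher), 502 on log2(TPM + 1) (55.4% higher), 519 on log2(TPM + 0.1) (52.6% higher) and 310 on log2(TPM + 1) with no filter (57.7% higher). DESeq2 called 1595 (42.8% higher). Without single libraries it was 785 to 1140. The cause of these shifts was not tested. Of the related genes 12 were called, and 6, 7 and 3 in the 3 TPM fits in that order. DESeq2 called 18 of them (5 higher, 13 lower). Without single libraries it was 6 to 13. The log2 fold change of Tbx20 was 6.37, and 1.35, 3.84 and 1.35 in the 3 TPM fits, where the added constant by construction limits the change of a gene near 0. It was 6.12 to 7.30 without single libraries, 7.30 without WT replicate 6, and Tbx20 did not pass the filter with all 12 libraries. Gata6 moved from 0.71 to 0.17 on log2(TPM + 1). The deviations of same-numbered libraries correlated at 0.364 for replicate 6, and at -0.00887, -0.153, 0.00740 and -0.151 for replicates 1, 2, 3 and 5. Replicate 6 alone of the 5 correlated best with its own number, a hint from the data and not the design, so the numbers were not taken to pair the lines. With the replicate block the fit called 777 genes and 8 related genes, and Tbx20 was at 6.24. Low members are limited by depth, with 3 counts equal to 0.252 to 0.510 CPM per library.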

Other observations

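Of the related genes that the filter on low counts left out, 28 had a count. Some had more counts in WT and others more in RGECO. Tbx4 and Gja5, named here with their values already known, are not the only ones with most of their counts in WT. Tbx4, the hindlimb T-box gene, lies 44 kb from Tbx2 on chromosome 11. It had 4, 22, 20, 19, 19 and 8 counts in WT replicates 1 to 6 and 0, 3, 1, 0 and 5 in RGECO replicates 1, 2, 3, 5 and 6. Its CPM ranges, 0.442 to 2.45 in WT and 0 to 0.417 in RGECO, did not overlap. In edgeR's quasi-likelihood fit without the filter its log2 fold change was -3.0 (adjusted p = 0.00865), where 3.67% of genes were called. Gja5, the gap junction gene of atrium and conduction fibres, was at -3.32 there on 32 and 2 counts (adjusted p = 0.133).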
